A study of Bos taurus with 64 samples.

Results

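The miRNA response of Charolais skeletal muscle to diet was described in 32 of the 64 libraries of the study, 16 from steers on a high-concentrate diet and 16 from steers on zero-grazed grass. The 32 were taken by their labels (Charolais breed, either diet), with nothing measured used to choose them. The study covers 2 breeds, Charolais and Holstein-Friesian, 2 diets and 2 classes of residual feed intake (RFI, the difference between what an animal eats and what its size and growth predict), with 8 libraries in each of the 8 groups. Every steer was fed in consecutive phases of 70 days with 14 days of acclimatisation between them. By the labels the concentrate phase followed the grass phase and gave ad libitum concentrate, mainly rolled barley (86%), with a small daily allowance of grass silage. The grass phase gave freshly cut perennial ryegrass herbage ad libitum. Low-RFI steers, the more feed-efficient ones, and high-RFI steers gave 8 libraries each per diet. The sources used here give no age, and since every concentrate sample was taken after the grass phase, diet cannot be told apart from age, season or any step done phase by phase. The labels name skeletal muscle without naming the muscle.

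MicroRNAs are short RNAs that guide Argonaute proteins to messenger RNAs and lower their translation and stability. In muscle a small set called myomiRs, such as miR-1, miR-133a, miR-206 and the miRNAs carried in myosin heavy chain introns, is tied to muscle differentiation and fibre type. Many other miRNAs are transcribed together from clusters, among them the imprinted DLK1-DIO3 region, which holds the site of the callipyge muscle hypertrophy mutation in sheep, and clusters of the X chromosome.

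The Charolais libraries held between 5006811 and 10413659 counts each (medians of 7361544 on concentrate and 8802574 on grass). Of 1030 miRNA names in the table, 293 were abundant enough to test, and the rest made up 0.00731% of the counts. The libraries carried the label's tissue in their miRNAs: miR-133a was at 36886, 70422 and 109892 CPM (read counts relative to a common library size, scaled with TMM factors) as the lowest, median and highest concentrate library, and at 57716, 82395 and 124354 CPM in the grass libraries. miR-1 was present at a far lower level than miR-133a, with a mean of 234 CPM against 77308 CPM. Markers of other tissues were mixed: the liver miRNA miR-122 had at most 8 counts in any library, the epithelial miR-200a at most 2 and the nerve miR-137 at most 1, whereas miR-192 of the liver list had 2406 to 5437 counts on concentrate and 2462 to 9062 on grass, miR-338 of the nerve list up to 403 on concentrate and 781 on grass, and the epithelial miR-141 up to 154 on concentrate and 43 on grass. One name dominated: miR-10b took 59.5% ± 4.79 of the counts on concentrate and 52.7% ± 7.80 on grass (SD, n = 16 each). Its log2 difference of 0.36 ± 0.15 (± standard error, SE) missed the threshold (edgeR quasi-likelihood test, adjusted p = 0.0788). The miRNA passed with the steer as a random block (0.47). Here and below the random block was fitted with limma-voom in place of edgeR, so method and block changed together. The concentrate high-RFI library 3 stood furthest from its group (r = 0.956 with the others) and had the highest miR-451. These are bulk samples, so fewer cells of a type and less RNA per cell cannot be told apart.

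Diet was associated with a change in 72 of the 293 miRNAs at a Benjamini-Hochberg adjusted p of 0.05 (edgeR quasi-likelihood test with RFI class as a covariate). On concentrate 40 miRNAs were higher (13.7% of those tested) and 32 were lower (10.9%). Of the 168 miRNAs with a mean of at least 10 CPM, 24 were higher and 19 lower, and of the 125 below that level 16 were higher and 13 lower. The median log2 difference over all 293 was 0.06. Of the 32 lower miRNAs 22 belonged to the DLK1-DIO3 cluster or to clusters on the X chromosome, and the higher ones included miRNAs of blood cells, of miR-17-92 and its relatives, and miR-103 with miR-107. The split between directions moved with the scaling: 5 were higher and 68 lower with total-count scaling, where the median difference of all miRNAs was -0.19, and 15 were higher and 38 lower with upper-quartile scaling. It also rested on single libraries for the higher miRNAs. Without concentrate low-RFI library 5 there were 9 higher and 27 lower, without concentrate high-RFI library 3 there were 15 higher and 25 lower, and without grass high-RFI library 1 there were 19 higher and 27 lower.

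**Figure D1:**
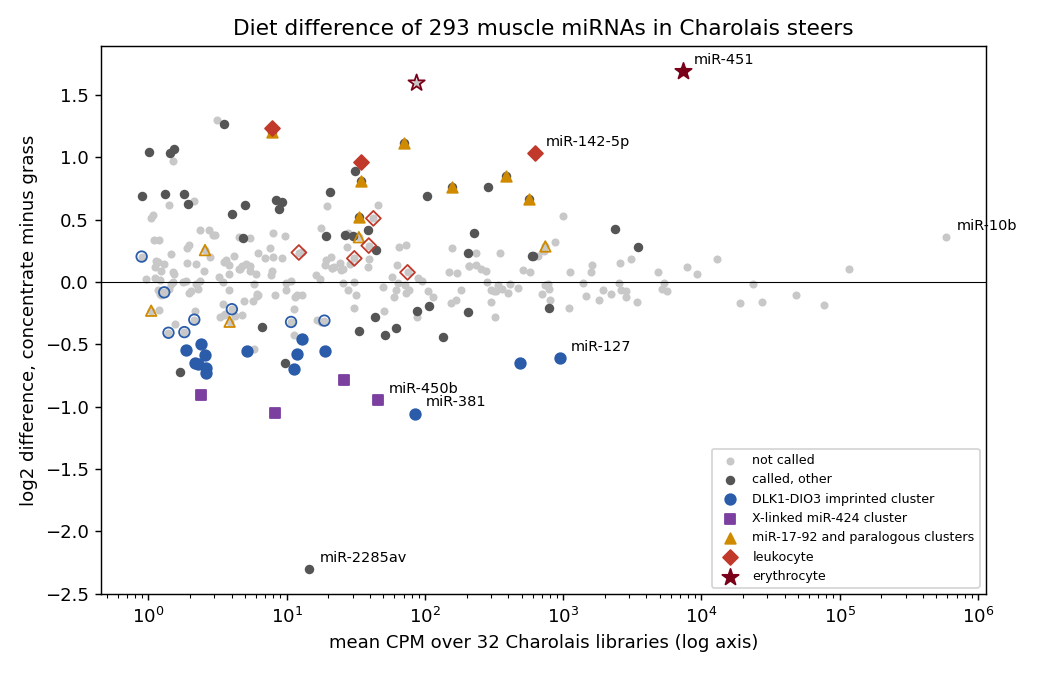
Log2 difference, concentrate minus grass, against mean CPM over the 32 Charolais libraries (log axis) for the 293 miRNAs tested; filled coloured symbols mark list members that were called, open symbols members that were not. The DLK1-DIO3 and miR-424 cluster members lie below 0 except miR-376b, and miR-451 has the highest difference at 1.69.

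The imprinted DLK1-DIO3 cluster was the largest group of miRNAs that fell on concentrate. Of its 23 tested members 15 fell, none rose and 8 did not pass the test, with a median log2 difference of -0.55 against 0.06 over all 293, of which 10.9% fell. The most abundant member, miR-127, which lies antisense to the RTL1 gene, was at 574, 732 and 1015 CPM on concentrate, against 645, 1085 and 1630.3 CPM on grass (lowest, median and highest of 16). All 16 concentrate libraries lay below the grass median, although the ranges overlapped. The log2 difference was -0.61 ± 0.11 (SE; edgeR adjusted p = 8.28e-05).

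miR-411a, which is processed from the long run of miRNA genes downstream of miR-127, was at 267, 389.6 and 516 CPM on concentrate, against 354, 595 and 935 CPM on grass. Again all 16 concentrate libraries were below the grass median, and the difference was -0.65 ± 0.11 (edgeR adjusted p = 6.08e-05). miR-381 had the widest difference of the cluster, at 28.4, 53.3 and 129 CPM on concentrate, against 57.7, 104 and 209 CPM on grass. That is a log2 difference of -1.06 ± 0.17 and a level of 0.481 times that on grass (edgeR adjusted p = 4.61e-05). One concentrate library, at 129 CPM, lay above the grass median, and the other 15 lay below it. Among the members near 10 CPM, miR-154c (-0.69 ± 0.17), miR-136 (-0.58 ± 0.14), miR-410 (-0.55 ± 0.14) and miR-380-3p (-0.45 ± 0.12) fell, with edgeR adjusted p-values from 0.00313 to 0.011. The 8 members that missed the threshold included miR-379 (-0.32 ± 0.15), which opens the long run, and miR-409a (-0.31 ± 0.20). miR-376b was the single member with a difference above 0, at 0.20 ± 0.24, and was at -0.08 with total-count scaling. Summed over its 23 tested members, the cluster had 947, 1329 and 1624 CPM on concentrate, against 1177, 1909 and 2912 CPM on grass.

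The X-linked cluster that encodes miR-424, miR-450 and miR-542 fell as a whole among its tested members, 4 of 4, with a median log2 difference of -0.92. Over all 293 tested miRNAs 10.9% fell. miR-424-5p, whose rodent counterpart miR-322 promotes cell cycle exit in myoblasts, was at 12.1, 18.02 and 33.6 CPM on concentrate, against 18.97, 29.8 and 56.7 CPM on grass. Of 16 concentrate libraries 15 were below the grass median, with a difference of -0.79 ± 0.15 (edgeR adjusted p = 0.000206). miR-450b, the most abundant of the 4, was at 15.2, 27.1 and 68.01 CPM on concentrate, against 27.7, 60.3 and 87.9 CPM on grass. The ranges overlapped between 27.7 and 68.0 CPM, and the difference was -0.94 ± 0.16 (edgeR adjusted p = 8.28e-05). Below 10 CPM, miR-450a and miR-542-5p were lower in all 16 concentrate libraries than the grass median, with differences of -1.05 ± 0.15 and -0.91 ± 0.19. All 4 stayed called without any single library. A second X-linked cluster, in an intron of CLCN5, had 3 of 8 members lower and none higher, with a median of -0.22. Those were miR-188 at -0.65 ± 0.17, miR-500 at -0.39 ± 0.12 and miR-532 at -0.24 ± 0.09, while its most abundant member, miR-660, missed the threshold at -0.21 ± 0.14. The call of miR-532 was lost in 6 of 32 fits without a single library, and the count of 3 ran from 2 to 4.

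**Figure D2:**
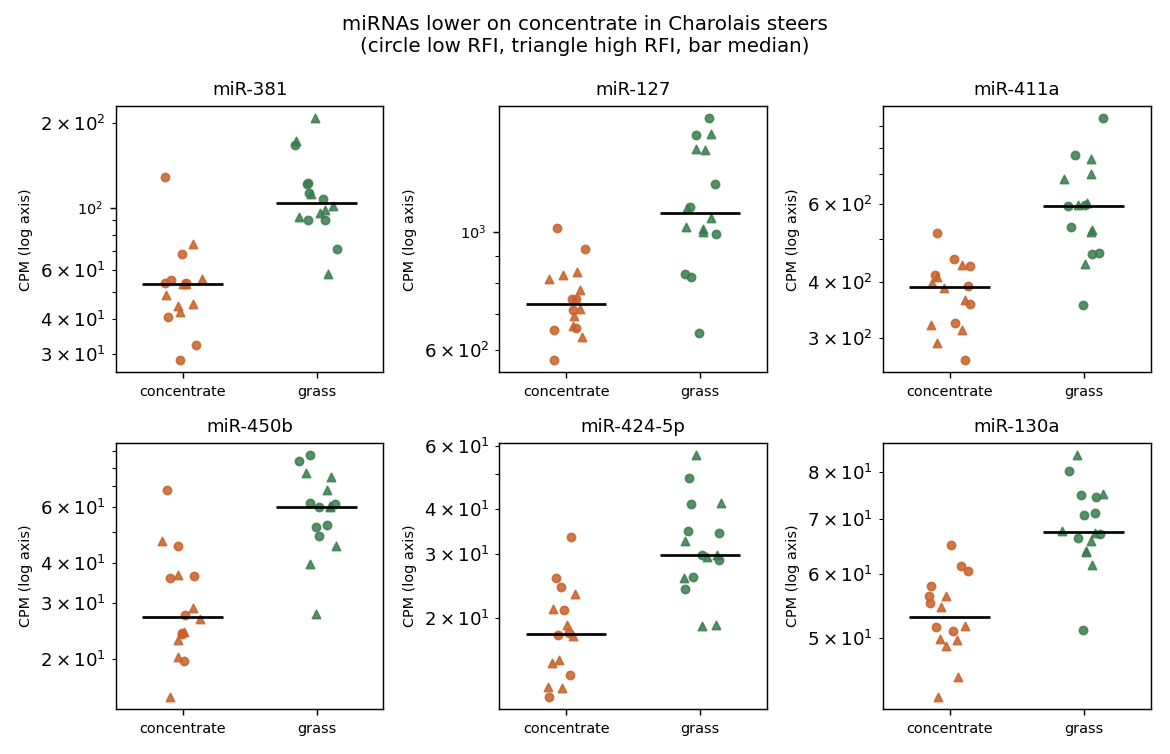
CPM (log axis) of 6 miRNAs called lower on concentrate, a point per library with 16 concentrate libraries left and 16 grass libraries right; circles are low RFI, triangles high RFI and bars the medians. In every panel at least 15 of the 16 concentrate libraries lie below the grass median.

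Outside the clusters, miR-130a, which represses the fat cell regulator PPARG in human preadipocytes, fell. It was at 42.4, 53.1 and 65.1 CPM on concentrate, against 51.2, 67.5 and 83.98 CPM on grass. All 16 concentrate libraries were below the grass median and the difference, though small at -0.37 ± 0.07, had an adjusted p of 8.28e-05 by edgeR. miR-28, encoded in an intron of LPP in human, was at 33.997, 40.8 and 66.8 CPM on concentrate, against 47.7, 59.3 and 78.4 CPM on grass, a difference of -0.43 ± 0.09 (edgeR adjusted p = 0.000645). miR-331-3p was at 65.1, 106 and 188 CPM on concentrate, against 98.6, 154 and 220.2 CPM on grass, a difference of -0.44 ± 0.12 (edgeR adjusted p = 0.0131). In both cases 15 of 16 concentrate libraries lay below the grass median and the ranges overlapped. The other arm of miR-331, miR-331-5p, was not called at 0.13, with a mean of 4.72 CPM. Smaller falls were called for miR-504 (-0.28), miR-181c (-0.23), miR-151-5p (-0.21) and miR-423-3p (-0.19). The other arms miR-151-3p (-0.03, mean 742 CPM) and miR-423-5p (-0.17, mean 155.5 CPM) were not called. When single libraries were left out, miR-181c and miR-151-5p each lost their call in 14 of 32 fits, miR-423-3p in 10 and miR-504 in 4.

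Among the miRNAs that rose, the red cell miR-451 had the widest difference. This miRNA, which is matured by AGO2 in red blood cell precursors, was at 619.6, 5316 and 51066 CPM on concentrate, against 278, 1412 and 10649.9 CPM on grass. The diets overlapped over much of their range, and 15 of 16 concentrate libraries were above the grass median. The log2 difference was 1.69 ± 0.62 (edgeR adjusted p = 0.0473), and the call was lost in 17 of 32 fits without a single library, with differences between 1.07 (without concentrate high-RFI library 3) and 2.01. miR-144, transcribed with miR-451, was at 10.1, 57.03 and 567 CPM on concentrate, against 2.55, 13.9 and 173 CPM on grass, a difference of 1.60 ± 0.64 that missed the threshold (edgeR adjusted p = 0.0652) and passed it with the steer as a random block (1.76) or with the repeated steers as fixed blocks (1.79). Summed over both, the red cell list had 629.7, 5379.9 and 51562 CPM on concentrate, against 280.1, 1429 and 10823 CPM on grass.

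Of 8 leukocyte miRNAs 3 rose, none fell and 5 did not pass the test, with a median of 0.40. Over all 293 tested miRNAs 13.7% rose, and the median was 0.06. miR-142-5p, made throughout the blood lineage, was at 237, 495 and 2328 CPM on concentrate, against 119.8, 245 and 1184 CPM on grass. 15 of 16 concentrate libraries exceeded the grass median, and the difference was 1.04 ± 0.38 (edgeR adjusted p = 0.0468), a call lost in 14 of 32 fits without a single library. The other arm of the same precursor, miR-142-3p, differed by 0.96 ± 0.32, and the myeloid miR-223, under 10 CPM, by 1.24 ± 0.40. The lymphocyte miRNA miR-150 (0.19 ± 0.19), miR-342 (0.08 ± 0.08) and the inflammatory miR-146b (0.51 ± 0.20) missed the threshold, and with total-count scaling miR-150 was at -0.05 and miR-342 at -0.16. The leukocyte list summed to 441, 767 and 2778 CPM on concentrate, against 276, 470.1 and 1469 CPM on grass, and none of its 8 members was called without concentrate low-RFI library 5 or without concentrate high-RFI library 3.

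The list of miR-17-92 and its relatives, which promote cell proliferation, had 7 of 12 tested members higher, none lower and 5 not called. Its median was 0.59 against 0.06 over all 293, of which 13.7% were higher. The 12 included the uncalled miR-92b (-0.32), whose gene lies outside these clusters. All 3 miRNAs of the run in an intron of MCM7 rose. miR-106b was at 20.6, 27.4 and 109.6 CPM on concentrate, against 14.9, 20.7 and 48.4 CPM on grass, a difference of 0.81 ± 0.25 (edgeR adjusted p = 0.025). miR-93 was at 90.3, 148 and 505 CPM on concentrate, against 69.1, 86.9 and 222 CPM on grass, and all 16 concentrate libraries lay above the grass median (0.76 ± 0.25, edgeR adjusted p = 0.0334). miR-25, the most abundant of the run, differed by 0.67 ± 0.24 with medians of 529 CPM on concentrate and 371 CPM on grass (edgeR adjusted p = 0.0468), and was not called with the steer as a random block (0.52). Its call was lost in 15 of 32 fits without a single library, and its difference was 0.42 without concentrate high-RFI library 3. The calls of miR-106b, miR-93 and miR-103 were each lost without concentrate low-RFI library 5 and without concentrate high-RFI library 3, with differences down to 0.61 for miR-106b, 0.55 for miR-93 and 0.52 for miR-103.

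miR-19a was at 17.5, 59.5 and 214 CPM on concentrate, against 5.18, 49.4 and 87.9 CPM on grass. 11 of 16 concentrate libraries were above the grass median and the difference was 1.11 ± 0.36 (edgeR adjusted p = 0.0306). Its lowest grass library, grass high-RFI library 1, stood apart from its group at 5.18 CPM. miR-19b was called at 0.85 ± 0.31 (edgeR adjusted p = 0.0447), but its deposited values were multiples of 1/2 on concentrate and whole on grass, and the call was lost in 16 of 32 fits without a single library. miR-17-5p (0.52 ± 0.20, and 0.39 and not called with the steer as a random block) and, under 10 CPM, miR-18a (1.21 ± 0.40) also rose, whereas miR-20a (0.36 ± 0.14) and miR-92a (0.29 ± 0.15) missed the threshold. The call of miR-17-5p was lost in 20 of 32 fits without a single library, and its difference was 0.34 without concentrate high-RFI library 3. The count of 7 became 0 without concentrate low-RFI library 5 or concentrate high-RFI library 3, 4 without any one of 11 other single libraries, and 1 with total-count scaling, where the median of the list was 0.33.

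**Figure D3:**
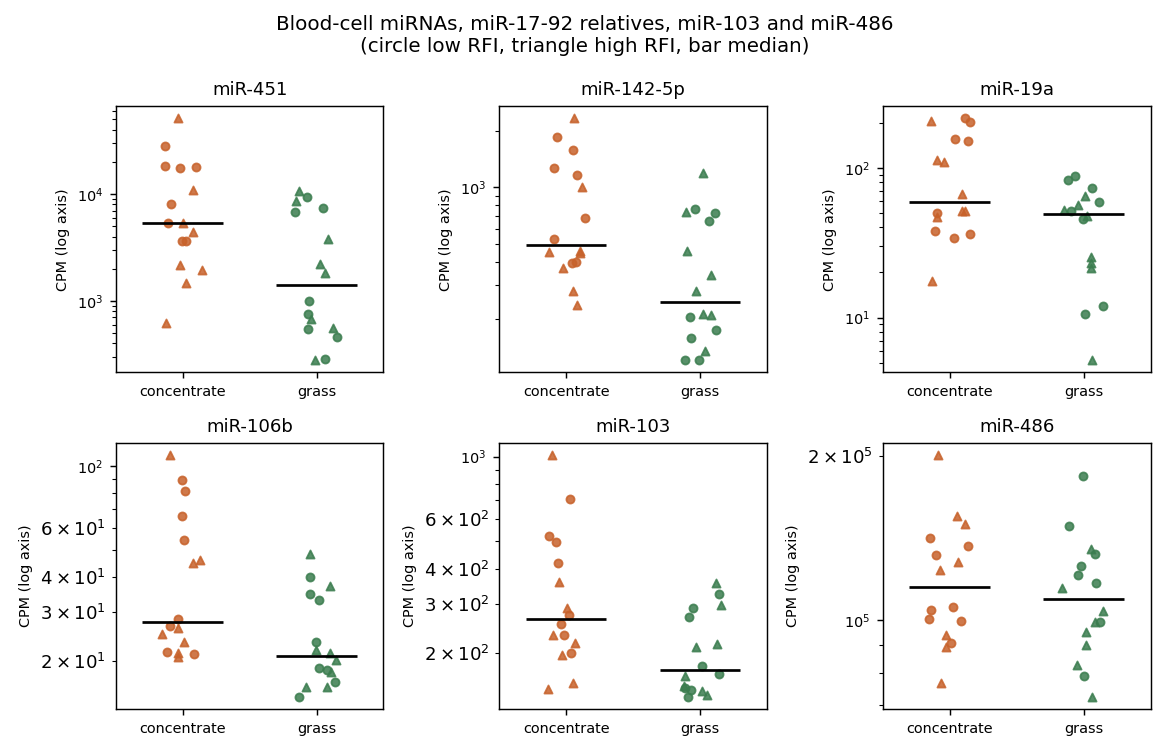
CPM (log axis) of 5 miRNAs called higher on concentrate and of miR-486, not called, a point per library with concentrate left and grass right; circles are low RFI, triangles high RFI and bars the medians. The diets overlap in every panel, and miR-486 has 8 of 16 concentrate libraries above the grass median.

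miR-103 and miR-107, paralogs that lie in introns of PANK genes and lower insulin sensitivity in mouse liver and fat, both rose. miR-103 was at 149, 264 and 1015 CPM on concentrate, against 140.1, 175 and 357 CPM on grass. 14 of 16 concentrate libraries exceeded the grass median (0.76 ± 0.23, edgeR adjusted p = 0.0234). miR-107 differed by 0.69 ± 0.24 (edgeR adjusted p = 0.0423) with medians of 88.99 CPM on concentrate and 66.3 CPM on grass, and it was not called with the steer as a random block (0.50) or in 12 of 32 fits without a single library. Their near-identical mature forms make the split of reads between the 2 names uncertain. The insulin and glucose list to which they belong had 7 of 17 members higher, 1 lower and 9 not called, with a median of 0.32. The shares over all 293 were 13.7% higher and 10.9% lower. The higher members of the list also included miR-15b of the cell-cycle-restraining miR-16 family (0.72 ± 0.26, and 0.57 and not called with the steer as a random block). This list also had the collagen repressor miR-29b (0.37 ± 0.12) and let-7a-3p (0.38 ± 0.11) higher and miR-424-5p lower. The other arm, let-7a-5p, also in the list, was not called at -0.07. Its mean was 1932 CPM, against 26.6 CPM for let-7a-3p. The count of 7 became 2 without concentrate low-RFI library 5 or concentrate high-RFI library 3, 4 without grass high-RFI library 1, and 0 with total-count scaling. The members miR-93 and miR-223 of this list were also counted in the miR-17-92 and leukocyte lists. miR-185 rose by 0.89 ± 0.32 (0.70 and not called with the steer as a random block). The calls of miR-15b and miR-185 were each lost in 13 of 32 fits without a single library, and without concentrate high-RFI library 3 their differences were 0.47 for miR-15b and 0.49 for miR-185.

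The level of miR-451 was set against those of other miRNAs across steers within a diet. Log2 CPM of miR-451 was compared with that of 6 miRNAs chosen after their values were seen, 12 relations in all (16 steers each, permutation p, Benjamini-Hochberg adjusted over the 12; the smallest p that 100000 permutations can give is 1e-05). With miR-103, Pearson's r was 0.95 on concentrate (Spearman's rho 0.96; p = 1e-05, adjusted 1.71e-05) and 0.95 on grass (rho 0.91; p = 1e-05, adjusted 1.71e-05). With miR-142-5p, r was 0.95 on concentrate (rho 0.96) and 0.97 on grass (rho 0.90), both with p = 1e-05 by permutation. With miR-106b, r was 0.89 on concentrate (rho 0.91; p = 1e-05) and 0.80 on grass (rho 0.66; p = 0.00037), and 0.90 and 0.73 without the 2 libraries farthest from the median. miR-19a followed miR-451 on concentrate (r = 0.79, rho 0.76, permutation p = 0.00034, adjusted 0.000493) but its r on grass was 0.30 (rho 0.36, permutation p = 0.267, adjusted 0.32). miR-381 had r = -0.08 on concentrate (permutation p = 0.775) and 0.07 on grass (permutation p = 0.8). The first principal component over the 168 miRNAs at 10 CPM or more took 47.5% of the variance and was led by miR-451, miR-144 and miR-142-5p. The part of blood cells in the rises of miR-103, miR-106b and the other miRNAs was not tested.

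Further called rises lay between 0.21 and 0.43. miR-99b was at 1902, 2498 and 3948 CPM on concentrate, against 614, 2121 and 2676 CPM on grass (0.43 ± 0.15), its lowest grass value being that of grass high-RFI library 5, and its call was lost in 12 of 32 fits without a single library. miR-148b rose by 0.39 ± 0.12 and its relative miR-152, which represses the DNA methyltransferase DNMT1, by 0.37 ± 0.11. miR-345-3p (0.42), miR-186 (0.28), miR-374a (0.26), miR-98 of the let-7 family (0.23) and miR-23b-3p (0.21) completed the abundant ones, together with miR-10174-3p (0.21), whose CPM almost equals that of miR-23b-3p, so that the 2 names may share reads. The calls of miR-23b-3p and miR-10174-3p were lost in 24 of 32 fits without a single library, that of miR-374a in 21, that of miR-186 in 10 and that of miR-345-3p in 6. With total-count scaling 3 of these were negative: miR-98 at -0.01, miR-23b-3p at -0.03 and miR-10174-3p at -0.03.

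The myomiRs did not pass the test on either side, 0 of 8, with a median of 0.09. Over all 293 tested miRNAs 13.7% were higher and 10.9% lower. miR-133a differed by -0.18 ± 0.12 (edgeR adjusted p = 0.29), and with total-count scaling it was called lower at -0.42. miR-133b had 0.07 ± 0.14, a sign that turned to -0.16 with total-count scaling. miR-486, from an intron of ANK1 and abundant in both muscle and red cells, had 76673, 114714 and 200673 CPM on concentrate, against 72362, 109153 and 183316 CPM on grass, a difference of 0.11 ± 0.13 that was -0.11 with total-count scaling. The slow-fibre miR-208b (-0.14 ± 0.13) and miR-499 (-0.07 ± 0.16) and the regeneration-linked miR-206 (0.37 ± 0.21) also missed the threshold, as did miR-1 (0.23 ± 0.13). Summed, the myomiRs had a median of 191345 CPM and a highest value of 282277 CPM on concentrate, against a median of 203986 CPM and a highest value of 278016 CPM on grass.

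Further lists are given beside the shares over all 293 tested miRNAs, 13.7% higher and 10.9% lower. The list of myoblast regulators had 2 of 27 higher and 1 lower (median -0.06), and that of lipid metabolism 3 of 19 higher and 1 lower (median -0.01), with its abundant members miR-143 (-0.01 ± 0.11) and miR-378 (-0.17 ± 0.11) not called. The hypoxia and mitochondria list had 1 of 13 higher and 1 lower. In the let-7 family 2 of 10 were higher, and let-7f, its most abundant member, differed by -0.07 ± 0.06. The miR-29 family had 1 of 5 higher, the miR-30 family 0 of 6, the miR-181 family 1 of 4 lower, the miR-15 and miR-16 family 1 higher and 1 lower of 7, and the miR-99, miR-100 and miR-125 families 1 of 6 higher. None was called among 2 endothelial names, where miR-126-5p differed by -0.01 ± 0.10, among 9 of smooth muscle and fibroblasts, where miR-145 differed by 0.32 ± 0.20, or among 4 liver, 2 nerve and 1 epithelial names.

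Runs of neighbouring miRNA genes differed in how many of their names were called. They were taken from the RefSeq gene table as genes within 10 kb of each other. Only the 242 tested names that matched exactly 1 gene were placed, and 12 runs had at least 3 of these. Of all 293 tested names 13.7% were higher and 10.9% lower. Because they did not match exactly 1 gene, the tested names miR-19b, miR-92a, miR-450a and miR-502a were not counted in these runs. The run from miR-379 to miR-410 had 11 of 18 tested names lower and the run from miR-493 to miR-136 4 of 5, both parts of the imprinted cluster. The run from miR-450b to miR-424-5p had 3 of 3 lower and that from miR-532 to miR-660 had 3 of 7 lower. The run from miR-106b to miR-25 had 3 of 3 higher and that from miR-17-3p to miR-20a 3 of 5 higher. In the other 6 runs miR-99b was the only name called, beside let-7e at -0.01 and miR-125a at -0.10 in its run. No test of movement within runs was made. Names of a run come from a shared transcript or region, and so are not independent of each other. Of 23 precursors with both arms tested, 15 had arms of the same sign, and both arms were called for miR-142 and miR-369.

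**Figure D4:**
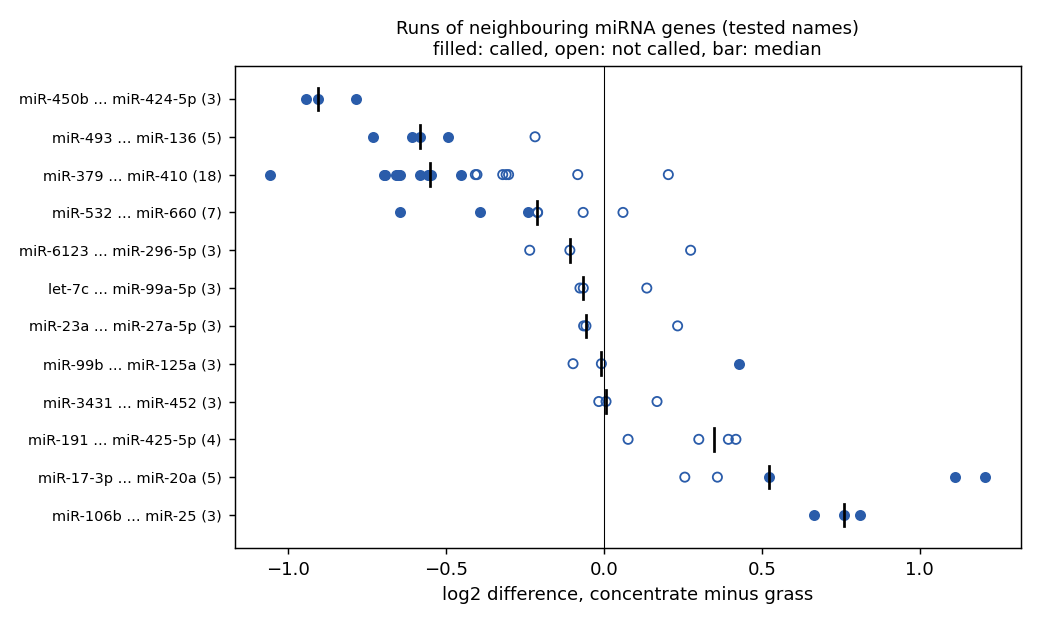
Log2 difference, concentrate minus grass, of each tested name placed in the 12 runs of neighbouring miRNA genes, ordered by their medians (bars). Only names that matched exactly 1 gene were placed. Filled points were called and open points were not, and the number of placed names is in parentheses. The run from miR-450b to miR-424-5p has the lowest median, -0.91, and the run from miR-106b to miR-25 the highest, 0.76.

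The miR-2284 and miR-2285 names, a large group of miRNAs found in cattle and their relatives, had 10 of 36 tested members higher, 1 lower and 25 not called, with a median of 0.14 that was -0.09 with total-count scaling. Over all 293 tested miRNAs 13.7% were higher and 10.9% lower. The count of 10 became 5 without grass high-RFI library 7, concentrate low-RFI library 5 or concentrate high-RFI library 3, and 6 without any one of 6 other single libraries. With the steer as a random block it was 7, the calls of miR-2284v, miR-2284y, miR-2285ar and miR-2285au being lost and that of miR-2285ci gained. Of the 293 miRNAs, 2 had concentrate and grass libraries that did not overlap (0.683% of those tested), and both were of this family. miR-2285av was at 2.996, 4.69 and 9.19 CPM on concentrate, against 18.1, 23.96 and 28.8 CPM on grass (-2.30 ± 0.11, edgeR adjusted p = 2.87e-18). miR-2284h-5p was at 3.15, 4.92 and 9.95 CPM on concentrate, against 1.18, 2.01 and 3.04 CPM on grass (1.27 ± 0.14, edgeR adjusted p = 2.69e-08). For these names the deposited values differed in kind between the phases: miR-2285av came in multiples of 1/8 on concentrate and 1/9 on grass, and miR-2284h-5p in whole counts on concentrate and multiples of 1/2 on grass. Such a divisor differed between the phases for 9 tested names, of which 6 were called, against 72 of all 293. Beside the 2 names above, these were let-7a-3p, miR-19b, miR-2285au and miR-2285g. The sources used here do not say how reads were shared out in each phase, and its part in these differences was not tested. With the 9 names and the others of unlike divisor left out, 58 miRNAs were called. In that fit 8 further miRNAs, not among those left out, lost their call.

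The diet response did not differ detectably between RFI classes. A test of the diet by RFI interaction called 0 of 293 miRNAs (0%) with edgeR, and 0 with limma-voom and with DESeq2, while 31 had an unadjusted p under 0.05. The smallest adjusted p was 0.457. Within low-RFI steers 30 miRNAs were called (10.2%), 7 higher and 23 lower, and within high-RFI steers 22 (7.51%), 7 higher and 15 lower. The log2 difference of miR-381 was -0.94 in low-RFI and -1.17 in high-RFI steers. For miR-127 it was -0.54 in low-RFI and -0.68 in high-RFI steers. The red cell miR-451 differed between diets by 1.94 in low-RFI and 1.45 in high-RFI steers, and miR-142-5p by 1.42 in low-RFI and 0.65 in high-RFI steers. All of these lay on the same side of 0 in both classes. The median of the X-linked cluster in CLCN5 was -0.42 in low-RFI and -0.03 in high-RFI steers.

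The 32 libraries came from 28 steers, 4 of which were sampled on both diets. In these 4 animals the log2 difference of miR-381 lay between -1.56 and -0.75, and that of miR-127 between -1.31 and -0.15. miR-451 was 3.02 and 2.26 higher in 2 of them and 0.15 and 0.04 higher in the other 2. Of the 32 miRNAs called lower, 23 were lower in all 4 steers, and of the 40 called higher, 15 were higher in all 4; the 4 steers are part of the libraries that made the calls. For comparison, 21 of the 221 uncalled miRNAs were lower in all 4 and 15 were higher. One of the 4 was labelled low RFI on concentrate and high RFI on grass. Without its 2 libraries 37 miRNAs were called, 9 higher and 28 lower, with 13 of 23 DLK1-DIO3 members and 4 of 4 miR-424 cluster members lower and no miR-17-92 member higher.

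Against Holstein-Friesian steers, 11 of 318 miRNAs (3.46%) differed in their diet response in a fit over all 64 libraries. In that fit the Charolais and Holstein-Friesian medians were -0.59 and -0.84 for the DLK1-DIO3 cluster, and -0.98 and -0.93 for the miR-424 cluster. For the X-linked cluster in CLCN5 they were -0.29 in Charolais and 0.003 in Holstein-Friesian steers, with no called breed difference among its members. miR-381 differed by -1.11 between diets in Charolais and -1.25 in Holstein-Friesian steers, and miR-424-5p by -0.85 in Charolais and -0.87 in Holstein-Friesian steers. For miR-17-92 and relatives the medians were 0.57 in Charolais and 0.09 in Holstein-Friesian steers, and miR-106b differed by 0.79 in Charolais and -0.03 in Holstein-Friesian steers, yet none of the members had a breed difference that passed the test. miR-451 was 1.76 in Charolais and 0.84 in Holstein-Friesian steers, also without a called difference. The 2 names without overlap in Charolais, miR-2285av and miR-2284h-5p, differed by -2.22 and 1.19 in Holstein-Friesian steers. Neither had a called breed difference.

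Of the 11, miR-423-3p, miR-380-3p and miR-152 shared the smallest adjusted p, 0.000667. miR-423-3p averaged 101.6 ± 5.68 CPM on concentrate and 121 ± 17.6 CPM on grass in Charolais, and 107 ± 14.5 CPM on concentrate and 90.1 ± 13.5 CPM on grass in Holstein-Friesian steers (SD, n = 16 each). It was lower on concentrate in Charolais and higher in Holstein-Friesian steers, a difference of -0.50 ± 0.10 (SE) between the responses. miR-380-3p of the imprinted cluster was lower on concentrate in both breeds, at -0.49 in Charolais and -1.32 in Holstein-Friesian steers. miR-152 differed by 0.33 in Charolais, where it was not called in this fit (adjusted p = 0.115 by edgeR), and by -0.75 in Holstein-Friesian steers. miR-331-3p was -0.50 in Charolais and 0.30 in Holstein-Friesian steers. miR-1 was 0.17 in Charolais and 0.78 in Holstein-Friesian steers, miR-378b was -0.11 in Charolais and 0.74 in Holstein-Friesian steers, and miR-378d was 0.09 in Charolais and 0.82 in Holstein-Friesian steers. The count of 11 ran from 8 to 29 when single libraries were left out, 29 being without Holstein-Friesian grass low-RFI library 7. It was 23 without Holstein-Friesian concentrate high-RFI library 6, 19 without Charolais concentrate low-RFI library 7, and 17 without Charolais concentrate low-RFI library 4, Charolais grass low-RFI library 5 or Holstein-Friesian grass high-RFI library 4 or 7. It was 1 with total-count scaling.

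**Figure D5:**
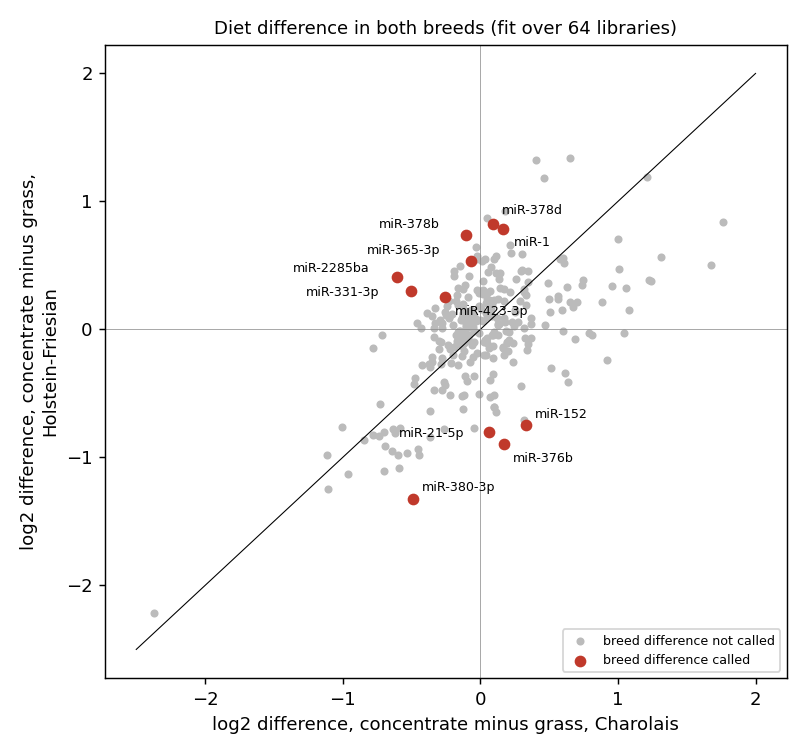
Log2 difference, concentrate minus grass, in Charolais (horizontal axis) and Holstein-Friesian steers (vertical axis) for the miRNAs tested in both fits; red points mark a called breed difference and the line marks equality. The 11 named miRNAs lie off the line, 7 of them above it (lower response in Charolais) and 4 below it.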

How the data were processed

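Per the labels' protocols, muscle RNA was prepared with a Qiagen RNeasy kit and libraries with an Illumina TruSeq stranded kit. The sources used here do not give the selection of small RNA, the aligner or the counter. The submitters' processing notes list the build ARS-UCD 1.2 and the tools cutadapt 2.6, FastQC 0.11.8, edgeR 3.5 and R 3.4 without their roles. The authors deposited 1 table of estimated counts, not normalized, for 1030 miRNA names and 64 libraries. In the Charolais libraries 59 names held fractions (over 0.001 from a whole number), and values were rounded to whole counts here. The name miR-2285b, with empty cells, was dropped. Totals per library ran from 5006811 to 10413659. Differences carry standard errors from the edgeR fit, which reflect the spread between libraries and not the totals alone. The reads carry no molecular identifiers, and no intervals are given. Each library is a separate steer within its group.

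Differences are concentrate minus grass from edgeR 4.0.16 in R 4.3.3, with TMM scaling, filterByExpr over the 4 Charolais groups and a quasi-likelihood fit of RFI class plus diet (29 residual degrees of freedom). The breed comparison used 8 group means over 64 libraries. Adjusted p-values are Benjamini-Hochberg over all miRNAs of a comparison, called at 0.05. Log2 CPM for correlations used a prior count of 2. Steers sampled on both diets paired libraries by animal: their deviations from the group means correlated at 0.257 to 0.656 in the 4 steers. They were not blocked in the reported fit. limma-voom 3.58.1 and DESeq2 1.42.0, other scalings and filters, blocks and single libraries left out were alternatives. Fixed blocks were fitted with edgeR and the random block with limma-voom.

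Named were the 12 largest falls and 12 largest rises among called miRNAs of at least 10 CPM, the 10 most abundant and the 3 most abundant of each list. Also named were those with no overlap, the smallest p of each interaction test and the 2 largest of each direction under 10 CPM. Another 47 named miRNAs were chosen after their values were seen. Further names in the text, such as miR-1, miR-208b, miR-499 and let-7e, were outside both the rule and these 47. The comparison, lists and rule were chosen with earlier results of these data known. Of 293 tested names 288 matched a miRNA gene in the RefSeq table of another build (ARS-UCD2.0), 242 of them exactly 1 gene. That build gave neighbours and host genes only, with no coordinates.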

Additional observations from a re-analysis of the deposited data

Results flagged for a closer look

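In 41 of 500 sets of 8 libraries (125 named miRNAs in 4 groups) the highest or lowest library lay far from the other 7 by Dixon's criterion, where chance gives about 1 in 20. Concentrate high-RFI library 3 accounted for 10 of the 41, all high. In it miR-103 was at 1015 CPM (149 to 358 in the other 7), miR-107 at 342, miR-25 at 2084, miR-92a at 1648, miR-15b at 71.1, miR-16a at 1329.5, miR-16b at 3521, miR-17-5p at 96.8, miR-18a at 35.5 and miR-20a at 77.9. The same library had the highest miR-451, a red cell miRNA, and the part of blood cells in these values was not tested. Without it the calls of miR-103 and of the MCM7 run were lost, as given above.

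Grass high-RFI library 5 held 6 far values, with miR-99b at 614 CPM (1883 to 2528 in the other 7), miR-100 at 785, miR-502a at 93.3, miR-146b at 16.3 and miR-409a at 4.28, all low, and miR-877 at 3.94, which was high. Grass high-RFI library 1 was low for miR-19a at 5.18, miR-19b at 33.8, miR-145 at 166 and miR-186 at 2043 CPM. Grass low-RFI library 3 was low for miR-130a at 51.2, miR-126-3p at 418 and miR-493 at 1.38 and high for miR-502a at 510.1 CPM. Grass low-RFI library 2 was high for miR-21-5p at 4683 CPM (1158 to 1444 in the other 7) and for miR-542-5p at 6.40, and low for miR-29c at 164. Another steer, grass high-RFI library 2, was also high for miR-21-5p, at 2427 CPM.

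The remaining libraries had 1 or 2 such values. Concentrate low-RFI library 5 was high for miR-141, an epithelial miRNA, at 15.5 CPM and for miR-185 at 83.3. On concentrate miR-19b was low at 116 in high-RFI library 5, miR-126-3p at 382 in high-RFI library 2, miR-380-3p at 5.96 in high-RFI library 8 and miR-411c-5p at 1.22 in low-RFI library 3, and miR-2284v was listed at 0 in low-RFI library 4. On grass let-7g was low at 649.7 in low-RFI library 4, miR-877 at 1.05 and miR-20a high at 43.3 in low-RFI library 1, miR-141 low at 0.687 in high-RFI library 3, miR-6120-3p high at 8.06 in high-RFI library 4 and miR-2887 high at 2.51 in high-RFI library 7.

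The diet difference of 11 miRNAs differed between Charolais and Holstein-Friesian steers by the interaction test of edgeR. The Charolais minus Holstein-Friesian value was positive for miR-152 (1.08), miR-376b (1.06), miR-21-5p (0.86) and miR-380-3p (0.83). It was negative for miR-2285ba (-1.01), miR-378b (-0.84), miR-331-3p (-0.81), miR-378d (-0.73), miR-1 (-0.62), miR-365-3p (-0.60) and miR-423-3p (-0.50). Without single libraries the miR-1 call was lost in 35 of 64 fits, that of miR-378d in 43 and that of miR-2285ba in 6, and the other 8 stayed called in all 64.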

How the results depend on the processing

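The count of 72 stayed within 1.5 times under the scalings, DESeq2 (85), limma-voom (56) and no RFI covariate (78), but was 38 with no filter and 47 with a filter at 10 CPM. Chosen after seeing the data, leaving out the grass libraries of the repeated steers gave 45 and leaving out the steer with a changed RFI class 37. With total-count scaling the breed interaction gave 1 call, low-RFI steers 12 and high-RFI steers 35, and low-RFI steers gave 19 with a filter at 10 CPM. Without single libraries the diet count ran from 36 to 77 and the breed interaction (added after seeing the data) from 8 to 29. The DLK1-DIO3 count ran from 13 to 15 and the miR-424 cluster count stayed at 4. With the replicate block (steers sampled on both diets, paired by animal) 80 miRNAs were called with fixed blocks in edgeR. A random block in limma-voom called 69 (correlation 0.454), against 56 in limma-voom without a block. Against the edgeR fit without blocks, over all 293 tested, fixed blocks gained 9 calls and lost 1. The random block gained 10 and lost 13. Of at least 10 CPM, the gains not given above were miR-16b, miR-29d-5p and miR-221 (fixed), miR-374b, miR-497 and miR-95 (random), and miR-181b and miR-335 (both). Depth was not varied, and names under 10 CPM rest on few counts.

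Several small differences changed sign, and the cause was not tested. With total-count scaling these were miR-30e-5p (-0.10), miR-133b (-0.16), miR-486 (-0.11), miR-29c (-0.11), miR-195 (-0.18), miR-16a (-0.046), miR-100 (-0.041), miR-2285f (-0.081), miR-2285ce (-0.13), miR-342 (-0.16), miR-21-5p (-0.15), miR-215 (-0.18), miR-192 (-0.16), miR-376b (-0.080), miR-150 (-0.052) and the called miR-98 (-0.011), miR-23b-3p (-0.034) and miR-10174-3p (-0.034). With upper-quartile scaling they were miR-133b (-0.024), miR-195 (-0.011), miR-342 (-0.0092) and miR-21-5p (-0.00209), and over 64 libraries miR-133b (-0.0088). With a random block miR-143 was 0.010 and miR-2887 0.29 (0.15 with limma-voom without a block). Without the concentrate libraries of repeated steers miR-126-5p was 0.012 and miR-30d 0.031, and without the steer of changed class miR-30d was 0.0098. Without single libraries miR-126-5p ran from -0.057 to 0.026, miR-143 from -0.075 to 0.026, miR-30d from -0.045 to 0.022, miR-133b from -0.023 to 0.12 and miR-2887 from -0.24 to 0.23.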
